A study of Mus musculus with 4 samples.

Results

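DNA methylation of differentiated colonic epithelial cells was compared with that of intestinal stem cells (ISCs) at both ages sampled in the mouse, the day of birth (P0) and postnatal day 21 (P21). All 4 whole-genome bisulfite sequencing (WGBS) libraries of the series entered the comparison, 2 of differentiated cells and 2 of ISCs. The loci were autosomal 2-kb windows and 200-bp bins that held 2 or more CpGs and reached 10 calls in every library, a call being one read of one CpG as methylated or unmethylated. These were 1164166 of 1193603 windows (97.5%) and 4076373 of 4938585 bins (82.5%). The question was which of them differed between the cell populations in one direction at both ages and on both strands.

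The 4 groups were ISC at P0, differentiated cells at P0, ISC at P21 and differentiated cells at P21, with 1 library each. All of the DNA came from colon of mice labelled C57 that were offspring of Lgr5-EGFP-CreER mice mated with wild-type animals, with no treatment named in the labels. ISCs were sorted for EGFP, which is driven by the Lgr5 locus, and differentiated cells were sorted as positive for EpCAM and negative for EGFP. Each library pooled the DNA of several mice, so the spread between animals was not measured. The reporter is known to be active in only some crypts, so EGFP-negative epithelium can hold stem cells of silent crypts, and the sources used here do not say whether reporter-negative pups contributed to the P0 pools.

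Colonic epithelium is renewed from stem cells at the base of the crypts, whose daughters become absorptive colonocytes or secretory goblet, enteroendocrine and tuft cells within days. Wnt signals at the crypt base keep the stem cells, and LGR5, RNF43 and ZNRF3 are parts of the system that tunes them. In mammals most CpGs are methylated, while CpG islands (CGIs) at gene starts are mostly free of methylation and distal regulatory elements often sit at intermediate levels. Imprinted genes carry methylation on the copy from one parent, so their control regions are read as methylated in about equal parts with unmethylated copies.

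The bins below were chosen after their values were seen, as among the clearest differences in either direction, or as lying in the gene that marks the sorted stem cells. Each is the + strand of mm9 as given in the reference genome, with the CpGs in capitals, so that the number and spacing of the sites behind a level can be seen. The bin nearest to Dmrta1 (chr4:89542801-89543000, 181338 bp from the gene) and the bin nearest to Col28a1 (chr6:7933401-7933600, 14208 bp from the gene) were more methylated in differentiated cells. The bins in intron 1 of Grb10 (chr11:11925801-11926000), intron 1 of Peg10 (chr6:4699401-4699600) and intron 3 of Ipmk (chr10:70833401-70833600) were less methylated in them. The last bin lies in intron 2 of Lgr5 (chr10:114940201-114940400) and was the bin of smallest p in its 2-kb window.
Dmrta1 side: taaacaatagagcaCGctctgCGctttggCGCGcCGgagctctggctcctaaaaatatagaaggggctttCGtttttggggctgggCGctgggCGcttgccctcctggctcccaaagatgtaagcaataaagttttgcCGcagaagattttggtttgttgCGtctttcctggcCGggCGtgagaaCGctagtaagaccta
Col28a1 side: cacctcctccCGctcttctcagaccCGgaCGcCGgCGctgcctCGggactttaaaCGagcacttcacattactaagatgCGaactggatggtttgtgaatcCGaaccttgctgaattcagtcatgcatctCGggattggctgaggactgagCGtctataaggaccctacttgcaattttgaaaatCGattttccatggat
Grb10 intron 1: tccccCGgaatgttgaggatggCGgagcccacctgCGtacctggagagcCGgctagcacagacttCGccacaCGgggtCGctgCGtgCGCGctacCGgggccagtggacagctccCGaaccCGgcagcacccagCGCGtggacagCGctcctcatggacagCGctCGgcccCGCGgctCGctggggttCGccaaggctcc
Peg10 intron 1: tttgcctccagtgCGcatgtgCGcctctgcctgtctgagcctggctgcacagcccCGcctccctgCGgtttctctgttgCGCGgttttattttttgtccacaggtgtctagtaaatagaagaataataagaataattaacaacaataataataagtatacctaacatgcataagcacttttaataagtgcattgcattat
Ipmk intron 3: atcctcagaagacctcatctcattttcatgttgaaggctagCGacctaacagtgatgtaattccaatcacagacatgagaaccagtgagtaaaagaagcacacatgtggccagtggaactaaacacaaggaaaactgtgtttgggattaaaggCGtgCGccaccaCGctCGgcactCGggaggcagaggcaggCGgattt
Lgr5 intron 2: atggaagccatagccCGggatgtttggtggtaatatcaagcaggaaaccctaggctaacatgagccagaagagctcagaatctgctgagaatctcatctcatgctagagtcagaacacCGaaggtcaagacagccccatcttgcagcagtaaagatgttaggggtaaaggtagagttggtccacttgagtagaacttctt
The bins differed widely in CpG content, from 22 CpGs in the Grb10 bin to 2 in the Lgr5 bin.

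At P0 the median window was covered by 232 calls in ISCs against 310 in differentiated cells, and at P21 by 242 against 264. Values given in pairs below list ISCs first and differentiated cells second. The median bin had 55 and 81 calls at P0 and 58 and 68 at P21. A pile-up of more than 200 calls per CpG in some library was seen in 253 windows and 1622 bins. Intervals and exact tests on calls cover counting error only, and they treat each call as independent. Calls on one read are not independent, and amplified reads carried no molecular identifiers. The intervals can therefore be too narrow and the p-values too small even for counting error. An exact permutation test over 2 against 2 libraries cannot give a p-value below 0.333, so p-values from calls compare these libraries and not the populations of mice.

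Promoters of marker genes checked the sorted tissue only in part. Of 18 epithelial marker genes, 17 had a promoter level (start ± 1 kb) below 20% in every library, whereas 21 of 25 tested immune cell markers were above 60% in every library, as were 8 of 14 endothelial markers. Below 20% in every library were 5 of the 14 endothelial promoters and 7 of 10 promoters of enteric neuron and glia markers, of which 1 was above 60%, so these lists do not mark the sort. The median promoter level of the immune list was 79.1% and 78.2% at P0 and 76.6% and 78.4% at P21. The start of Epcam, which encodes the surface protein used in the sort, was at 4.73% and 3.01% at P0 and 3.02% and 2.36% at P21. The start of Lgr5 was at 2.97% and 1.75% at P0 and 1.49% and 5.77% at P21, so this promoter was nearly free of methylation in both populations. Neither promoter was called, and these levels do not tell ISCs from differentiated cells. Mesenchymal starts, with a median of 26.3% and 23.8% at P0 and 30.1% and 26.8% at P21, were not at the high levels of the immune list.

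Genome-wide levels were close in the 2 populations. Windows averaged 79.0% and 78.7% at P0, and 78.5% and 77.7% at P21. The mean over bins was 77.0% and 76.9% at P0 and 76.7% and 76.2% at P21. Weighting every call equally gave lower values in differentiated cells by larger amounts, with differences of -2.78 points at P0 and -2.51 at P21 over windows. Positions with more than 1000 calls held 63.7% and 50.5% of all calls at P0 and 62.4% and 52.3% at P21. The part of these positions in the call-weighted differences was not tested. In CGI windows the call-weighted differences were -5.40 points at P0 and -4.62 at P21. In the 1073257 windows outside CGIs and shores the call-weighted differences were -0.589 and -0.772 points.

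With calls summed over a window, differences tended to share their direction at the 2 ages, which have no library in common. Among windows differing by more than 15 points at each age, 6559 had the same direction and 2501 the opposite (72.4% the same). Of the 6559 windows, 2344 were higher in differentiated cells at both ages and 4215 were lower. Among bins past the same limit, 50598 had the same direction and 40461 the opposite (55.6% the same). Pearson's r between the differences at P0 and P21 was 0.172 over windows and 0.0368 over bins, as a description of loci that share libraries and depth.

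A summed level also depends on which CpGs of a window were read most. A second comparison, chosen after the data had been seen, therefore set each cytosine of each strand against itself in the 2 populations and then averaged over cytosines (Mantel-Haenszel difference). On this cytosine-matched scale, 3277 windows differed by more than 15 points in the same direction at both ages and 3193 in opposite directions (50.6% the same), and r fell to 0.0112. For bins, 47279 had the same and 45519 the opposite direction (50.9% the same), with r of 0.0105. The mean matched difference was 0.0228 points at P0 and -0.502 at P21 over windows, and 0.0607 and -0.449 over bins.

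**Figure D1:**
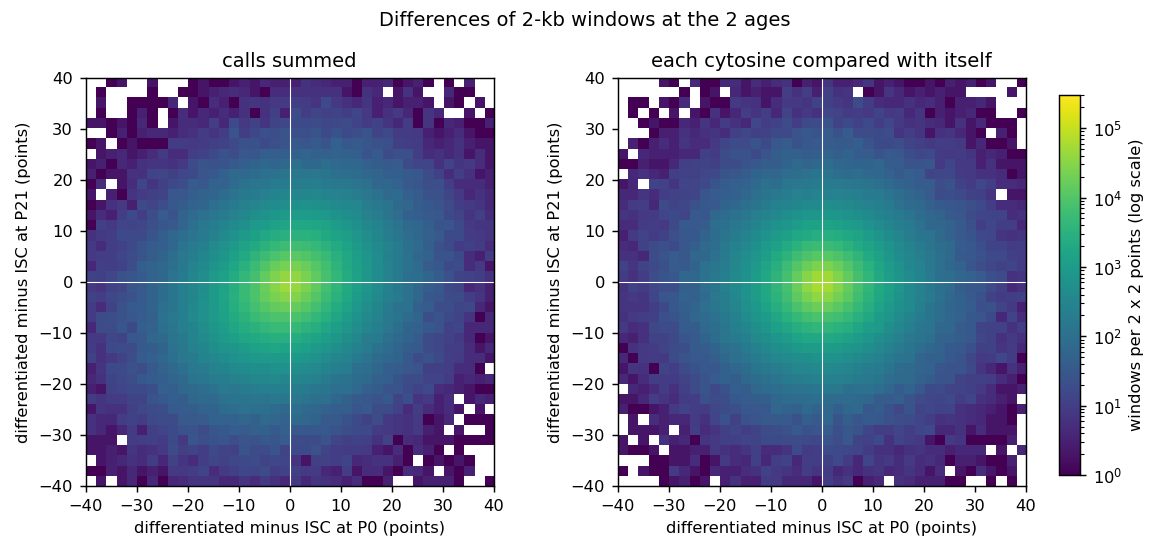
Differences of 2-kb windows (differentiated minus ISC, percentage points) at P0 on the x axis and at P21 on the y axis, with the number of windows per 2 by 2 points in color on a log scale. Calls summed per window (left) stretch along the diagonal, with r of 0.172, and the cytosine-matched differences (right) form a round cloud, with r of 0.0112.

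**Figure D2:**
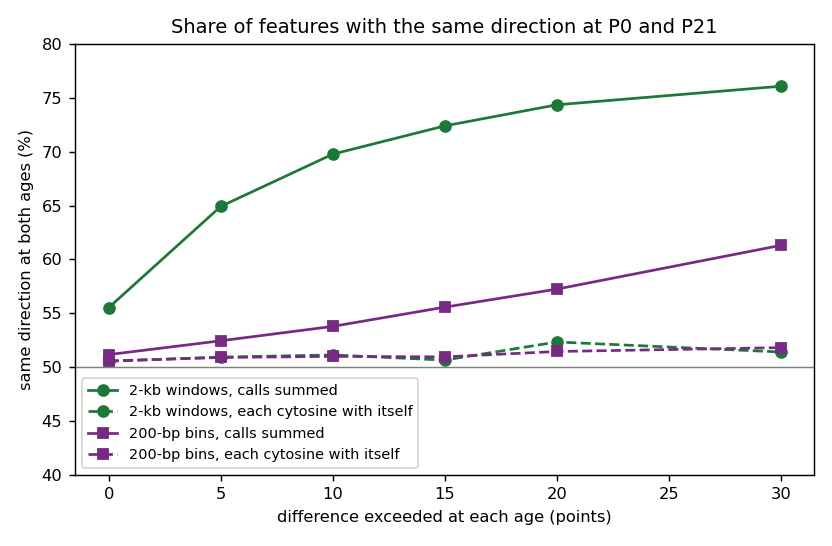
Share of loci (%) with the same direction at P0 and P21, among those whose difference exceeded the limit on the x axis at each age. Summed windows rise from 55.5% at 0 points to 72.4% at 15 points, while matched windows and bins stay between 50.5% and 52.3%, and the grey line marks 50%.

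The scales parted further among the firmest differences. With an exact p below 0.0001 at each age, 6977 windows had the same direction and 152 the opposite when calls were summed, against 66 and 131 when cytosines were matched. The corresponding numbers of bins were 307 and 135 summed, and 115 and 157 matched. Among windows the same direction thus made up 97.9% of the summed and 33.5% of the matched differences, and these shares carry no test.

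The window 174 bp from Psat1, a gene of serine synthesis, shows how the scales part (chr19:16022001-16024000). Its summed level was 32.3% and 66.4% at P0 and 39.0% and 77.5% at P21, so both differentiated libraries were above both ISC libraries. Of its 16 CpGs, 8 had a level below 50%, and these held 70.7% and 33.2% of the calls at P0, and 51.8% and 11.5% at P21. The matched difference was 9.23 points at P0 and 0.623 at P21, and the matched test did not call it (adjusted p = 0.348, exact conditional test with Benjamini-Hochberg adjustment). A window 36141 bp from Pdia4 (chr6:47708001-47710000, 97 CpGs) went the other way, at 59.5% and 36.0% at P0 and 66.3% and 44.2% at P21. There the low CpGs held 28.7% and 56.5% of the calls at P0 and 27.7% and 51.7% at P21, and the matched differences were -1.22 and -0.992 points. In the window nearest to Dmrta1 the shares of calls on low CpGs were closer, 70.5% and 61.1% at P0 and 63.2% and 60.4% at P21, and the matched difference remained 18.3 and 17.2 points.

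**Figure D3:**
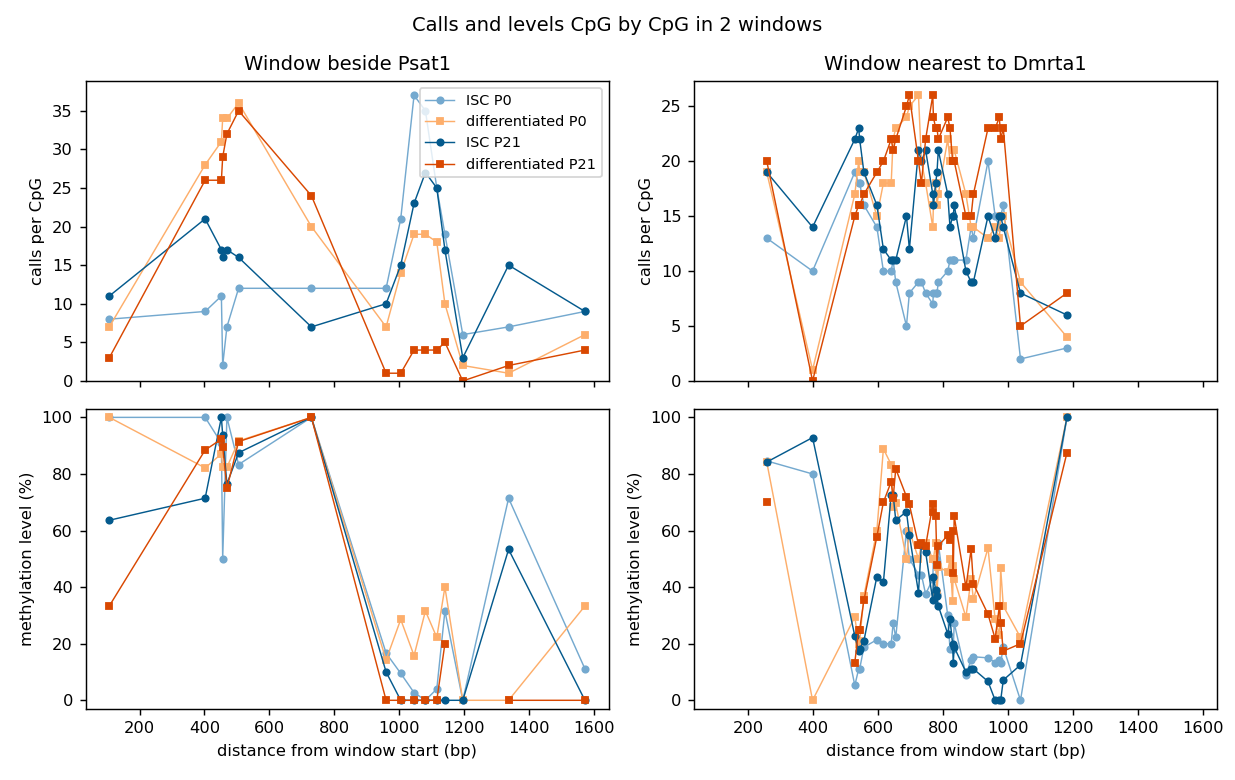
Calls per CpG (top) and methylation level in percent (bottom) along the window beside Psat1 (left) and the window nearest to Dmrta1 (right), by distance from the window start in bp, with a line for each of the 4 libraries. Beside Psat1 the libraries differ in which CpGs were read, and its low CpGs were at 7.93% and 25.3% at P0 but 0.775% and 4.35% at P21; near Dmrta1 the low CpGs were at 18.2% and 38.7%, then 19.5% and 41.2%.

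Gains (higher in differentiated cells) and losses (lower) were called by an exact test of a common odds ratio over the 2 ages, with an adjusted p below 0.05, one direction at both ages and on both strands, and a mean difference above 10 points for windows or 15 for bins. Over all loci the strands shared little, with r between matched differences of the + and - strand of 0.00682 at P0 and 0.00656 at P21 for windows and 0.00834 and 0.00563 for bins. Summed calls gave 6348 gains (0.545% of windows) and 10018 losses (0.861%), and for bins 2900 gains (0.0711%) and 2630 losses (0.0645%). With cytosines matched under the same thresholds there were 881 gains (0.0757%) and 959 losses (0.0824%) among windows, and 2330 gains (0.0572%) and 1750 losses (0.0429%) among bins. Both procedures called 456 window gains and 568 window losses, which were 7.18% and 5.67% of the summed calls and 51.8% and 59.2% of the matched calls. For bins the 1367 shared gains and 1056 shared losses were 47.1% and 40.2% of the summed calls and 58.7% and 60.3% of the matched calls.

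The size of the differences moved in windows more than in bins. The median summed difference was 13.1 points in window gains and -13.0 in window losses, and the same windows had median matched differences of 6.0 and -4.81 points. In bins the medians were 21.1 and -21.0 points summed, and 18.9 and -18.0 matched. The matched mean was under 5 points in 2704 window gains (42.6%) and 5118 window losses (51.1%), against 68 bin gains (2.34%) and 91 bin losses (3.46%). For this reason the matched difference is given below for a part of the single loci. The others are described by summed levels alone, from which the matched difference can depart.

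The limma moderated test over the 4 libraries, with age as a term and calls as weights, called 24426 windows (2.1% of those tested), of which 6053 were higher and 18373 lower in differentiated cells. It called 4 bins (9.81e-05% of those tested, 3 higher and 1 lower), all of them pile-ups, while 183606 bins had an unadjusted p below 0.05 (4.5%). In windows the moderation gave infinite prior degrees of freedom, so all windows took 1 common variance, scaled by calls. The spread at a single window therefore did not enter its p, which came from the normal distribution. In bins the prior had 6.24 degrees of freedom. The 10 windows with the smallest p included 9 pile-ups, among them windows of Gm10801, Gm10800 and Chl1. The Chl1 window, for example, was at 79.7% and 87.1% at P0 and 80.5% and 86.9% at P21 from between 50785 and 300607 calls. The other was the Pdia4 window above. Without weights, or with calls thinned to the lowest library, this test called 0 windows and 0 bins.

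By place in the genome, the windows with most losses by summed calls were those in CGIs and 5' regions, which was not so in bins or with cytosines matched. Of 39794 CGI windows, 3.53% were summed losses and 0.196% gains, and of 33779 windows in 5' regions 3.28% were losses and 0.438% gains. The matched procedure called losses in 0.0176% of CGI windows and 0.0355% of 5' windows, and gains in 0.0352% and 0.0296%. Among bins, summed losses made up 0.0496% of those in CGIs, 0.0640% of those in 5' regions and 0.0915% of those in shores. By level, summed losses were more frequent still in windows between 10% and 25% (6.07%) and between 25% and 40% (6.80%). A CGI window needed only 100 bp in an island, so most of it can be flanking DNA. CGI bins averaged 30.8% and 30.6% at P0, and 31.5% and 31.2% at P21. CGI windows averaged 46.3% and 44.1% at P0, and 46.5% and 44.7% at P21, and the mean matched differences were -0.113 and -0.278 points. Their median depth was 869 and 1849 calls at P0, and 961 and 1488 at P21, so depth moved with cell population, and its part in the summed differences was not tested. Outside CGIs and shores, the matched shares were 0.0782% gains and 0.0852% losses.

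**Figure D4:**
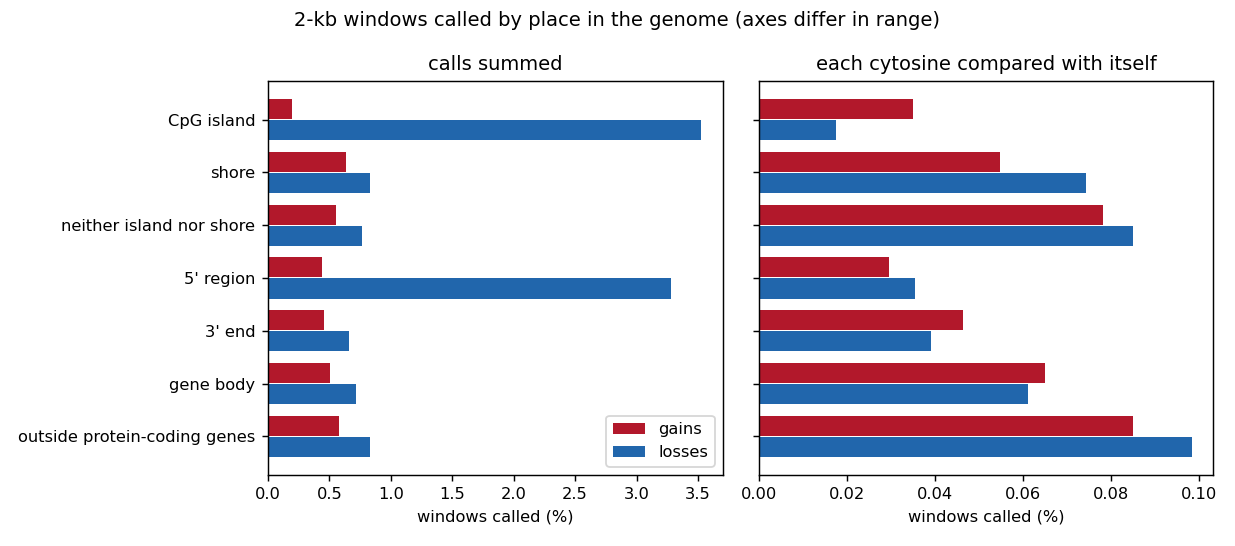
Share of 2-kb windows called as gains or losses (%) by place in the genome, with calls summed (left) and with each cytosine compared with itself (right); the x axes differ in range. Summed losses peak at CGIs (3.53%) and 5' regions (3.28%), while matched calls are scarcer there than elsewhere.

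Matched loci are described here by level and place, with no test. A mean level between 25% and 75% was found in 58.6% of the bins with matched gains and 50.9% of those with losses, against 20.3% of all bins, and levels in this range leave room for a change of 15 points in either direction. CGIs held 2.32% of the gains and 1.89% of the losses, against 3.56% of all bins, shores held 6.87% and 7.89%, against 6.41%, and protein-coding gene bodies held 40.5% and 40%, against 41.8%. The median level of bins with gains was 56.3% and 80.4% at P0, and 57.9% and 78.3% at P21. That of bins with losses was 85.2% and 63.0% at P0 and 83.3% and 61.2% at P21. The share of windows called as matched gains ranged from 0.0573% to 0.109% over the 19 autosomes and that of losses from 0.0560% to 0.104%.

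Neighbours of called bins that were called themselves were left out, so the values below do not show how far differences extend. The remaining bins next to a called bin differed by little. Their median matched difference was 1.47 points at P0 and 0.57 at P21 on the lower-coordinate side of gains, and -0.81 and -0.96 on that side of losses. Bins directly adjacent to a matched gain, and not called themselves, were higher in differentiated cells at both ages in 31.1% (lower coordinates) and 29.2% (higher coordinates) of cases, against 22.7% of all bins. Beside losses 31.4% and 33.4% were lower at both ages, against 26.1% of all bins. At a distance of 1000 bp the shares were 22.4% and 23.2% for gains and 27.3% and 26.3% for losses.

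The letters of 11 short sequence motifs were counted on both strands of the bins, with no test. The E-box CAGCTG, read by basic helix-loop-helix factors, occurred in 12.7% of bins with matched gains and 11.8% of those with losses, against 9.85% of all bins. The letters CTTTGAT, of the kind bound by the Wnt effector TCF7L2, occurred in 4.59% of the bins with gains and 3.2% of those with losses, compared with 3.28% overall. The AP-1 letters TGANTCA were in 5.84% and 7.6%, against 5.78%, and the ETS letters CCGGAAG were in 1.24% and 1.89%, against 1.37%. For AGATAA, the letters of GATA factors, the shares were 11.03%, 9.03% and 9.95%, and for TTTATTG, those of the intestinal factor CDX2, they were 4.46%, 3.37% and 4.05%. The RUNX letters TGTGGTT were in 3.95% and 3.71%, against 4.64%, and the CTCF letters CCNNNAGG in 31.2% and 30.7%, against 28.98%. KLF (CCACCC) stood at 14.2% and 15.3%, against 14.1%, HNF1 (GTTAATNAT) at 0.730% and 0.571%, against 0.435%, and HNF4 (CAAAGTCCA) at 0.3004% and 0.4%, against 0.253%. Base composition and CpG number were not matched in these counts, and the motifs can overlap one another.

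The bins of smallest matched p among the gains lay outside genes. The bin nearest to Dmrta1, a transcription factor gene, had a level of 16.9% (95% Wilson interval 12% to 23.2%) and 40.2% (33.9% to 46.8%) at P0, and 11.9% (7.89% to 17.5%) and 41.6% (35.9% to 47.6%) at P21. Both differentiated libraries were thus above both ISC libraries, with matched differences of 22.1 and 29.5 points (adjusted p = 1.48e-11, exact conditional test). At P0 its 2 strands differed in size, by 2.04 points on the + strand and 63.2 on the - strand. The bin nearest to Col28a1, a collagen gene, was at 45.8% and 77.4% at P0 and 61.4% and 80.5% at P21, from 397 to 549 calls (matched differences 32.0 and 19.5 points, adjusted p = 4.07e-24, exact conditional test). Its strands agreed more closely, with 39.1 and 28.4 points at P0 and 18.3 and 19.8 at P21.

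Further gains are given by level, chosen after their values were seen. The window 1630 bp from Hoxb13, a homeobox gene of the hindgut (chr11:96052001-96054000), was at 26.1% and 39.8% at P0 and 21.0% and 44.1% at P21, with matched differences of 17.8 and 22.2 points (adjusted p = 9.19e-10, exact conditional test). A bin across intron 9 and exon 10 of Sgk2, a kinase gene of a family that regulates ion transport (chr2:162824801-162825000), was at 28.2% and 60.8% at P0 and 52.9% and 71.5% at P21. A run in intron 3 of Rbm47, an RNA-binding protein of the gut (chr5:66524601-66525000), was at 53.0% and 73.3% at P0 and 21.4% and 36.8% at P21. Here the level was lower at P21 in both populations, and differentiated cells were above ISCs at each age by 20.6 and 15.3 matched points. The bin in intron 7 of Aff3 (chr1:38415601-38415800) showed a like order, at 64.0% and 82.3% at P0 and 15.5% and 36.8% at P21.

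These gains ranged from nearly unmethylated to mostly methylated sites. A bin 47256 bp from Dkk2, a secreted modulator of Wnt signaling (chr3:131700801-131701000), had 0 methylated calls of 76 in ISCs at P0 and 0 of 80 at P21, and was at 18.2% and 14.2% in differentiated cells (77 and 113 calls). An exonic bin of Fam132b (chr1:93266801-93267000) was at 47.1% and 63.3% at P0 and 1.80% and 21.9% at P21. The window in intron 1 of Rab8b, a GTPase of vesicle transport (chr9:66726001-66728000), was at 58.1% and 79.9% at P0 and 70.4% and 83.6% at P21. In intron 30 of Myh15 (chr16:49156001-49158000) the levels were 76.4% and 92.9%, then 70.7% and 88.9%. The 600-bp run in intron 2 of Osbpl10 (chr9:115059601-115060200) was at 48.7% and 75.5% at P0 and 49.4% and 68.5% at P21. Both differentiated libraries lay above both ISC libraries at each of these named gains except Rbm47, Aff3 and Fam132b, where the P21 differentiated library was below the P0 ISC library.

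Among the losses of smallest matched p, chosen after their values were seen, were loci at 3 imprinted genes, Plagl1, Grb10 and Peg10. How often imprinted loci were called was not counted. The window at the start of Plagl1, an imprinted zinc finger gene (chr10:12810001-12812000, 109 CpGs, covering exon 1), was at 66.7% (64.3% to 69.0%) and 45.8% (44.2% to 47.5%) at P0, and at 62.7% (60.4% to 64.9%) and 49.1% (47.4% to 50.9%) at P21. Its matched differences were -12.5 and -10.8 points (adjusted p = 5.54e-20, exact conditional test), and both strands were lower at both ages, as a call required. Its 44 CpGs below 50% held 36.0% and 50.4% of the calls at P0, and 42.3% and 47.9% at P21. Depth was uneven along the window, for example 2 and 34 calls at P0 at the CpG 500 bp from its start, and 12 and 3 at 1719 bp. Reads of the 2 parental copies were not separated. The bin in intron 1 of Grb10, an imprinted inhibitor of growth factor signaling, was at 66.6% and 44.99% at P0 and 71.3% and 45.8% at P21 (matched -19.1 and -24.4 points, adjusted p = 1.51e-12, exact conditional test). The bin in intron 1 of Peg10, an imprinted gene derived from a retrotransposon, was at 72.3% and 36.7% at P0 and 70.2% and 39.5% at P21 (matched -33.6 and -31.4 points, adjusted p = 1.55e-08, exact conditional test). In all 3, both ISC libraries were above 50% and both differentiated libraries below it.

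A list of 18 imprinted genes was written after these loci had been seen, and no test was made over it. For 17 of them, bins between 25% and 75% lay within 2 kb of the start. By summed levels, 11 of the 17 were lower in differentiated cells at both ages, 0 were higher at both and 6 were mixed, and of all 1164166 windows 373454 were lower and 270943 higher at both ages on this scale. By the median matched difference of their bins, 8 were lower at both ages, 2 were higher (Grb10 and Mest) and 7 were mixed, where 28.2% of all windows were lower and 22.2% higher at both ages on the matched scale. The values for all windows cover every level and single windows, and are no matched background for medians over bins of 25% to 75%. In the 2483 CGI windows with a mean level of 40% to 60%, summed differences averaged -4.18 points at P0 and -3.16 at P21. Of these windows 9.30% were summed losses and 1.25% summed gains, and their matched differences averaged -0.083 and -0.288 points. Of the 11 genes lower by summed levels, Snrpn, Airn and Rasgrf1 rested on 1 bin each. Plagl1 had the summed levels 62.5% and 45.9% at P0 and 61.3% and 48.7% at P21 over 11 such bins, 6 of them lower and 4 higher at both ages by matched differences. Peg3 was at 54.5% and 48.3% at P0 and 53.9% and 48.2% at P21 over 17 bins, and a single bin of Airn was at 85.2% and 66.3%, then 80.6% and 61.6%. At Peg10 the start was at 56.7% and 53.7% at P0 and 52.5% and 51.8% at P21 over 17 bins, with 7 of them lower and 5 higher at both ages by matched differences. Gnas was at 55.2% and 51.0% at P0 and 54.1% and 52.2% at P21, and Impact at 47.1% and 44.7%, then 46.4% and 41.2%. The matched medians were -2.11 and -3.24 points at Gnas. At Impact they were 4.77 and -3.85 points, with 5 bins higher and 4 lower at both ages. Mest was at 49.2% and 54.1% at P0 and 53.1% and 51.6% at P21, with matched medians of 5.84 and 0.703 points and 7 of 17 bins higher and 1 lower at both ages. The bins at the annotated start of Grb10, apart from the intronic bin, were at 36.8% and 37.4% at P0 and 57.7% and 57.7% at P21, with matched medians of 5.62 and 4.47 points, opposite in direction to the intronic bin.

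Other losses lay in introns and intergenic sites of genes of several kinds. In intron 3 of Ipmk, an inositol phosphate kinase gene, the bin was at 90.1% and 61.4% at P0 and 91.3% and 76.3% at P21 (adjusted p = 9.74e-12, exact conditional test). No repeat annotation was used, so it was not checked whether this bin or other named loci lie in repeats, where reads are harder to place. A run 5468 bp from Fxyd6, a regulator of the sodium pump (chr9:45172401-45172800), was at 94.4% and 70.9% at P0 and 90.1% and 65.6% at P21. A run 17475 bp from Btn2a2, a butyrophilin gene (chr13:23598201-23598600), was at 27.4% and 8.51% at P0 and 64.6% and 33.6% at P21, with both populations higher at P21. The bin in intron 7 of Map3k5, a stress kinase gene (chr10:19760001-19760200), was at 61.5% and 39.9% at P0 and 58.7% and 25.5% at P21.

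Further losses lay at Cebpa, Mecom, Rabep1 and Tanc2. The window in the single exon of Cebpa, a factor of cell differentiation (chr7:35906001-35908000), was at 49.6% and 35.4% at P0 and 34.1% and 24.9% at P21 (matched -14.9 and -10.1 points, adjusted p = 3.30e-05, exact conditional test). The window over exon 2 of Mecom (chr3:29908001-29910000) was at 69.6% and 56.4% at P0 and 52.2% and 40.5% at P21 (matched -11.3 and -15.3 points). In intron 1 of Rabep1, a gene of endosome transport (chr11:70674001-70676000), nearly full methylation of 97.6% and 95.7% in ISCs stood beside 89.0% and 82.8% in differentiated cells. The bin in intron 19 of Tanc2 (chr11:105770801-105771000) was at 64.8% and 25.4% at P0 and 31.9% and 8.97% at P21 from 54 to 78 calls.

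**Figure D5:**
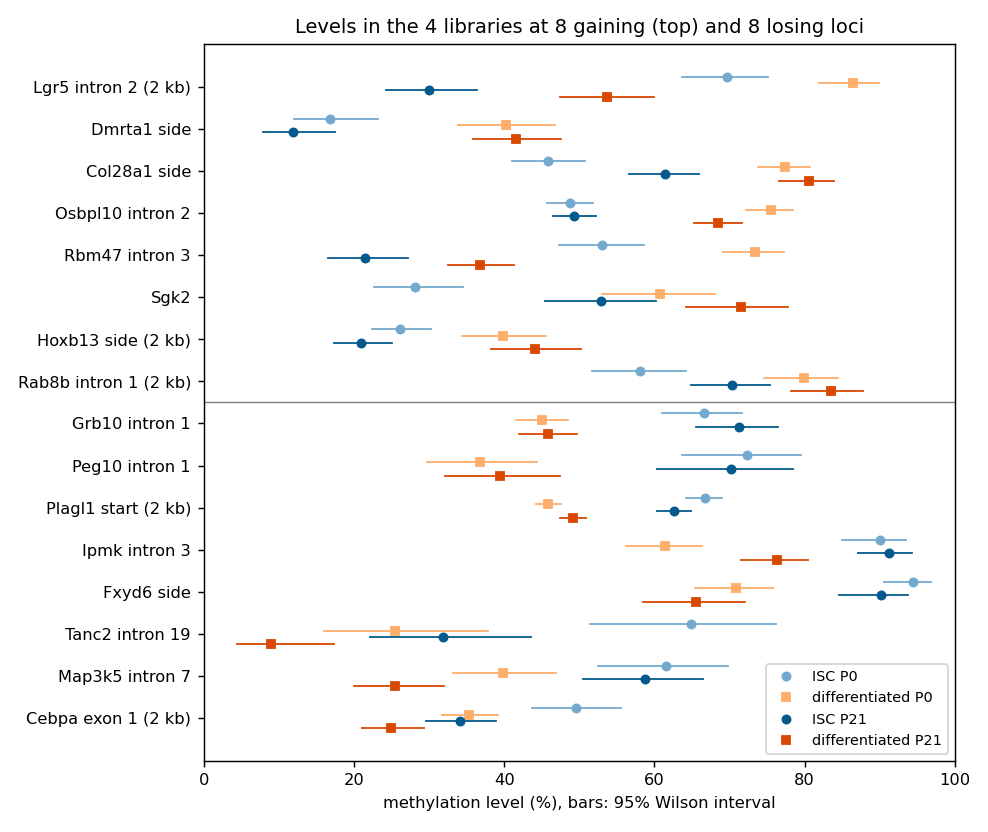
Methylation level (%) in the 4 libraries with 95% Wilson intervals at 8 loci with gains (top) and 8 with losses (bottom); circles are ISCs and squares differentiated cells, light at P0 and dark at P21. One direction at both ages was a condition for calling these loci, so their shared order is no finding. Peg10, for example, was at 72.3% against 36.7% at P0 and 70.2% against 39.5% at P21.

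The largest summed differences were in windows with at most 107 calls in any library, except for the Psat1 window above. By the smaller of the 2 ages, the top 12 gains and top 12 losses were taken among windows past 10 points at each age, and 2 gains (near Cox7c and at Vmn2r30) and 3 losses (in Dlg2, near Gm904 and near 4930444P10Rik) were also called with cytosines matched. The window in intron 3 of Dlg2, a synaptic scaffold gene (chr7:97982001-97984000), was at 97.7% and 30.8% at P0 and 92.3% and 16.7% at P21, from 43, 13, 39 and 12 calls. Its intervals in differentiated cells were wide, 12.7% to 57.6% and 4.70% to 44.8%, and did not reach those of ISCs. The first of the gains, 44954 bp from Kitl (chr10:99608001-99610000), was at 34.6% and 94.1% at P0 and 43.2% and 96.7% at P21 from 26 to 37 calls, but its matched differences were 31.0 and 8.89 points with an adjusted p of 0.301 (exact conditional test). Of the 10 gaining and 10 losing bin runs named by number of bins, 5 and 5 were matched calls.

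Lgr5, the gene that marks the ISCs, held 1 matched gain among 72 windows, where 0.0757% of all windows were matched gains. This window in intron 2 (chr10:114940001-114942000, 18 CpGs) was at 69.7% and 86.4% at P0 and at 30% and 53.7% at P21, from 220 to 280 calls (matched 10.3 and 16.7 points, adjusted p = 0.00158, exact conditional test). Differentiated cells were above ISCs at each age, as a call required, while ISCs at P0 were above differentiated cells at P21. The printed Lgr5 bin, which lies in it, was at 88.5% and 98.8% at P0 and 47.9% and 77.6% at P21. Of the 72 windows 26 were higher and 14 lower in differentiated cells at both ages by matched differences, against 22.2% and 28.2% of all windows, and reads of the reporter allele were not separated from those of the wild-type allele.

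Rnf43 and Znrf3, which encode the ligases that remove Wnt receptors from the surface of stem cells, each held 1 matched call. In intron 2 of Rnf43 a window (chr11:87500001-87502000) was at 39.3% and 45.2% at P0 and 14.5% and 26.6% at P21, a matched gain of 7.23 and 14.96 points (adjusted p = 0.000138, exact conditional test) that was not a call with calls summed. Within it the bin at chr11:87501401-87501600 was at 44.6% and 66.7% at P0 and 5.56% and 27.9% at P21. A window in intron 1 of Znrf3 (chr11:5280001-5282000) was at 37.7% and 36.1% at P0 and 61.2% and 29.9% at P21, a matched loss of -5.77 and -23.2 points (adjusted p = 0.00103, exact conditional test) that was larger at P21. Over all of its windows, Rnf43 had 16 higher and 7 lower at both ages out of 40, and Znrf3 28 higher and 21 lower out of 86. The same tallies were 18 and 22 out of 82 for Rbm47, 17 and 17 out of 72 for Hnf4g, and 1 and 5 out of 11 for Epcam. Of all windows 22.2% were higher and 28.2% lower at both ages. Over the 25 ISC marker genes, 956 windows held 2 matched gains (0.209%) and 1 matched loss (0.105%), against 0.0638% and 0.0617% of the windows of all protein-coding genes. At those background shares this list would hold less than 1 call in each direction, so its shares rest on few calls, and they carry no test. Summed calls gave 7 gains and 9 losses there (0.732% and 0.941%, against 0.516% and 0.917%).

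Promoters were seldom called, in the lists as among all genes. Of 21083 promoters, summed calls gave 75 gains (0.356%) and 337 losses (1.6%), and matched cytosines gave 7 gains (0.0332%) and 5 losses (0.0237%). None of the promoters of the ISC, colonocyte, goblet, enteroendocrine, transcription factor, Notch or BMP lists was called by either procedure. In the tuft cell list 1 of 14 was a summed loss, Alox5ap, which encodes a protein of leukotriene synthesis, at 59.1% and 44.4% at P0 and 59.0% and 52.1% at P21. Its matched differences were -6.77 and -1.79 points, and it was not a matched call. Median promoter differences were small, for example 0.205 and 0.0218 points for the ISC markers and -0.566 and 0.311 for the colonocyte genes, on the matched scale, against 0.0124 and -0.0803 for all promoters.

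The promoters with matched calls were few enough to name. The gains were at Zp3r, Lelp1, Defa20, Htr3b, Vmn1r203, Gm8369 and 1 gene of unknown function, and the losses at Olfr432, Gm13089, Tas2r125, Gm6483 and Plagl1. Vmn1r203, Olfr432 and Tas2r125 encode vomeronasal, olfactory and taste receptors, and Defa20 a defensin. The Lelp1 promoter was at 69.6% and 81.1% at P0 and 64.4% and 74.7% at P21 (matched 12.3 and 15.4 points). At Vmn1r203 the levels were 50% and 73.5%, then 60% and 75.7%. The promoter of Olfr432 was at 87.9% and 78.8% at P0 and 90.04% and 83.1% at P21.

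Windows over differentiation genes were counted next. By matched cytosines, colonocyte genes had 0 calls in 417 windows, goblet and secretory genes 0 in 261, enteroendocrine genes 0 in 245 and tuft cell genes 0 in 436, where summed calls gave 3 gains and 7 losses (0.719% and 1.68%), 0 and 4 (1.53% losses), 3 and 2 (1.22% and 0.816%), and 2 and 0 (0.459% gains), against 0.516% and 0.917% of the windows of all protein-coding genes. With matched gains in 0.0638% and losses in 0.0617% of the windows of all protein-coding genes, lists of this size would hold less than 1 call at the background share, so these counts do not set the lists apart. Among intestinal transcription factors, 1 gain in 664 windows lay in Hnf4g, a nuclear receptor of enterocytes (chr3:3616001-3618000), at 48.1% and 71.2% at P0 and 54.2% and 71.2% at P21 from 52 to 59 calls. Genes of the Notch pathway, which directs cells to the absorptive fate, had 1 loss in 678 windows, in intron 1 of the coactivator Maml3 (chr3:51736001-51738000), at 90.8% and 82.7% at P0 and 97.6% and 81.6% at P21. Matched differences were 20.7 and 25.4 points at Hnf4g and -15.6 and -17.1 at Maml3. Other cell types held 1 loss in 464 windows for immune markers (Ptprc), 1 loss in 473 for endothelial markers (near Robo4), 1 gain in 171 for enteric neuron and glia markers (Elavl4) and none in 374 for mesenchymal markers or 276 for epithelial markers.

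BMP signaling, which opposes Wnt outside the crypt base, had 2 gains and 1 loss in 658 windows (0.304% and 0.152%, against the 0.0638% and 0.0617% above). The window in intron 1 of the receptor gene Bmpr1b (chr3:141614001-141616000) was at 66.2% and 78.1% at P0 and 66.1% and 74.5% at P21. That in intron 3 of Bmpr1a (chr14:35258001-35260000) was at 83.2% and 96.5%, then 78.5% and 93.0%, and was called with cytosines matched only. The window nearest to the ligand gene Bmp4 (chr14:47014001-47016000) was lower in differentiated cells, at 95.1% and 84.9% at P0 and 92.8% and 78.8% at P21. Matched differences were 15.7 and 11.3 points at Bmpr1b, 10.2 and 19.3 at Bmpr1a, and -13.2 and -10.7 at Bmp4. Among genes of the methylation machinery, 1 loss in 314 windows (0.318%) lay in intron 1 of Tet1 (chr10:62358001-62360000), an enzyme that oxidizes methylated cytosine, at 72.6% and 56.8% at P0 and 63.8% and 58.6% at P21 (matched -16.5 and -8.47 points, adjusted p = 0.00237, exact conditional test), and was not a call with calls summed. With cytosines matched, no list had more than 2 windows called in one direction. At the background share each list would hold less than 1 call in each direction, so these shares rest on few calls, and they carry no test.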

How the data were processed

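WGBS data of 4 libraries were analyzed, 1 for each of 4 groups taken from the sample labels. As the methods and labels describe, DNA was converted with bisulfite, sequenced on a HiSeq 2000 as paired-end reads and mapped by the authors to mm9, and the submitters' processing notes name Bismark and Bowtie. Software versions, and whether duplicate reads were removed, were not given in the sources used here. The authors deposited, for each cytosine of a strand, the count of calls and, beside it, how many of them were methylated. The fraction that the authors deposited beside them equaled the ratio of these counts within 5e-06 and was not used. Calls off reference CpGs were dropped (0.465% to 0.850% of positions), both strands were summed, and levels are methylated calls in percent of all calls.

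Windows and bins needed 2 CpGs and 10 calls in each library. The bin size followed the study, and the limit of 15 points is the one its methods give for maturation-associated regions. Tests were a moderated linear model (limma 3.58.1, R 4.3.3) on arcsine square root levels weighted by calls with an age term, and two-sided exact conditional tests over the ages (Python 3.11.15, scipy 1.17.1), with Benjamini-Hochberg adjustment over all loci tested. The difference that a call had to exceed was the plain mean of the 2 ages. The cytosine-matched comparison was chosen after the data were seen and left out pile-ups above 200 calls per CpG. All procedures were tested on simulated data. Genes and exons came from GENCODE M1 on mm9, and CGIs were regions where 500-bp windows held at least 25 CpGs. A 2-kb window or bin counted as CGI if at least 100 bp of it lay in such a region.

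Loci named by rule were the 12 gaining and 12 losing windows with the largest difference at the weaker age, the 10 gaining and 10 losing bin runs with the most bins, the 10 windows of smallest p in the model over libraries, listed genes with a called promoter, and Lgr5 and Epcam. Loci named from the matched comparison, up to 15 in each direction by smallest p, were chosen after values were seen. So were the genes Rnf43, Znrf3, Rbm47 and Hnf4g, and the bins named within Lgr5 and Rnf43. The comparison and all gene lists were chosen with earlier results of these data known. The planned share of repeats was not computed. Alternatives covered minimum calls, pile-ups, a shifted grid, chromosome X, thinning, weights, scales, thresholds, strands and single ages.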

Additional observations from a re-analysis of the deposited data

Results flagged for a closer look

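Some loci had firm differences of opposite direction at the 2 ages. With cytosines matched and an exact p below 0.0001 at each age, 91 windows were higher in differentiated cells at P0 and lower at P21, and 40 were lower at P0 and higher at P21. Among bins the numbers were 106 and 51. These loci were listed because the direction was reversed between ages, and the difference between the ages was not itself tested. A window over exon 1 of Hnf4g (chr3:3634001-3636000) was at 74.3% in ISCs against 48.7% in differentiated cells at P0, and at 30.9% against 52.0% at P21. The values below keep this order. A bin 83397 bp from Ebf2 (chr14:68132001-68132200) was at 37.3% and 90.3% at P0 and 79.0% and 32.1% at P21. A window 94550 bp from Gadd45a (chr6:67082001-67084000) was at 65.2% and 47.7% at P0 and 42.8% and 57.4% at P21.

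The sex chromosomes were outside the comparisons and were listed for that reason. Chromosome X had 27.5 (ISCs) and 25.5 (differentiated cells) calls for each 1000 autosomal calls at P0, and 27.7 and 24.8 at P21. Chromosome Y had 0.242 and 0.194 at P0 and 0.239 and 0.219 at P21. CpGs with more than 200 calls were left out of these numbers, and the labels do not give the sex of the pooled mice.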

How the results depend on the processing

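Counting results depended on thresholds, depth and the way cytosines were combined. The count of windows called by the test over libraries was 24426 as reported, 0 with thinned calls, 7 without the age term, 0 without weights and 11644 with a mean difference above 10 points. For bins this test gave 4 as reported, 22 with a minimum of 20 calls, 1213 on the logit scale, and 0 without pile-ups, with thinned calls, without the age term, without weights or with a difference above 10 points. Summed window gains and losses became 11622 and 21017 with no condition on strands, 3385 and 5346 with the limit met at each age, 719 and 991 above 20 points, and 881 and 959 with cytosines matched. Summed bin gains and losses became 768 and 722 with thinned calls, 7611 and 8086 with no condition on strands, 1681 and 1495 with the limit met at each age, and 419 and 398 above 30 points, and matched losses numbered 1750. A single age at a time gave 8705 to 15013 window gains, 16378 to 19285 window losses, 1845 to 7187 bin gains and 2640 to 4980 bin losses. Promoter gains and losses became 7 and 5 with cytosines matched. The share of windows with the same direction was 86.4% with a minimum of 40 calls and 50.6% matched, and that of bins 56.5% and 50.9%. With calls weighted equally, differentiated minus ISC was -2.78 points at P0 and -2.51 at P21 over all windows (-0.589 and -0.772 outside CGIs and shores), -5.40 and -4.62 over CGI windows, -2.90 and -2.59 over all bins, and -3.07 and -2.71 over CGI bins, with 50.5% to 63.7% of the calls of a library at positions above 1000 calls. The mean of CpG levels turned the direction at 5 of 120 named regions, with -2.08 points near Ins1, -0.860 beside Psat1, 6.86 in Pcca, -3.16 near Gm5614 and 0.115 at the start of Epcam, which was 0.0856 with cytosines matched. The + strand alone gave -0.932 at Gm10801. With cytosines matched, 82 of the regions moved by less than their counting interval and 37 by more. The causes were not tested, except that a higher limit makes a count smaller by construction. A single age at a time also drops the condition of one direction at both ages. The age term and the tests over ages pair the libraries by age, and the labels carry no replicate number for a further pairing. The pairing leaves 1 residual degree of freedom for each locus, and for windows the moderation replaced each variance by 1 common value.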
